A study of Mus musculus with 18 samples.

Results

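Sesn1, Sesn2, Sesn3, Ddit4, Ddit4l, Deptor, Tsc1 and Tsc2 encode inhibitors of mTORC1, and these 8 genes were taken by symbol from a table of 55573 genes in mouse cortical neural progenitor cells. Such progenitors are the dividing cells that form the neurons and glia of the cortex. Total RNA of 18 C57BL/6 cultures was sequenced in 3 groups of 6 libraries, each group with replicates numbered 3, 4, 5, 6, 8 and 9. The Upf2 Trp53 Cre cells were Upf2fl/fl Trp53fl/fl and received AAV9-Cre, an adeno-associated virus that carries Cre recombinase. The Upf2 Cre cells were Upf2fl/fl and received the same virus at the same multiplicity of infection. The Upf2 mock cells were Upf2fl/fl and received medium without virus. All groups carried floxed Upf2 alleles, the medium was changed after 14 h, and cells were harvested at 72 h.

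Upf2 is needed for nonsense-mediated decay, a pathway that removes mRNAs with early stop codons. Trp53 is the gene of p53, a transcription factor that responds to stress. The title of the series asks how nonsense-mediated decay and p53 interact in progenitor maintenance. Virus exposure goes with Cre, since no group had a virus without Cre. The Trp53 genotype goes with the doubly floxed line, of which no mock group is among the samples. In both cases the effects cannot be told apart. The numbered replicates are called biological in the labels, which do not say whether they are separate animals or cultures, so p-values measure the spread between these samples.

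mTORC1 is a kinase complex on the lysosome that promotes protein synthesis and growth when amino acids, energy and growth factors are available. Rag GTPases bring it to the lysosome, and the small GTPase Rheb switches it on there. The inhibitors act at different points of this route. Sestrins bind GATOR2, a complex that keeps GATOR1 from switching the Rag GTPases off, and Sesn2 is a sensor of leucine. The products of Ddit4 (also known as REDD1) and Ddit4l (REDD2) act through the complex of Tsc1 and Tsc2, which switches Rheb off, and Deptor binds the mTOR kinase itself. In mice and humans Sesn1 and Sesn2 are known targets of p53, Sesn2 and Ddit4 of the stress factor ATF4, Sesn3 and Sesn1 of FoxO factors, and Ddit4 also of hypoxia factors and glucocorticoids. Loss of TSC1 or TSC2 in the developing human cortex causes the malformations of tuberous sclerosis.

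The unit is TPM, transcript abundance per length scaled to the same total in every library, so the number of reads behind each value is unknown and no counting interval can be given. Between 14019 and 15210 genes reached 1 TPM per library. A gene named Gm23935 took 14.1% of all TPM in Upf2 Cre replicate 6. The library numbered 3 stood apart in every group: 61.4%, 70.2% and 60.3% of tested genes lay outside the range of the other 5 libraries of its group in Upf2 Trp53 Cre, Upf2 Cre and Upf2 mock. Upf2 Trp53 Cre replicate 4 had 58.1% and Upf2 mock replicate 8 had 54.5%, and the other 13 libraries had 11.8% to 36.2%. Each result on the inhibitor genes is therefore also given without the 3 libraries numbered 3. Trp53 averaged 16.5 ± 1.69 TPM in Upf2 Trp53 Cre, 138 ± 35.0 in Upf2 Cre and 104 ± 18.2 in Upf2 mock (SD, n = 6 each). Upf2 averaged 33.8 ± 9.03, 20.2 ± 4.82 and 11.1 ± 2.98 TPM in the same 3 groups, but a TPM of the whole gene includes exons that Cre leaves in place, so it checks nothing about the deletion. Markers of radial glia, the progenitors of the cortex, summed to medians of 5978 TPM in Upf2 Trp53 Cre, 4508 in Upf2 Cre and 10232 in Upf2 mock. All 8 of these markers reached 1 TPM, and against mock 1 of them fell in Upf2 Trp53 Cre and 5 in Upf2 Cre. Beside these and the next marker counts, 10.4% of all tested genes rose and 1.09% fell in Upf2 Trp53 Cre against mock. In Upf2 Cre against mock the shares were 16.5% and 24.2%. Astrocyte markers summed to between 392 and 994 TPM, and of the 6 tested, 1 fell in Upf2 Trp53 Cre and 4 fell in Upf2 Cre, each against mock. Neuron markers summed to between 87.4 and 204 TPM, and of the 6 tested, 3 rose in Upf2 Trp53 Cre, while Upf2 Cre had 1 rise and 1 fall. Oligodendrocyte lineage markers summed to between 1122 and 4162 TPM, and of the 6 tested none passed in Upf2 Trp53 Cre against mock at an adjusted or an unadjusted p under 0.05 in limma, while Upf2 Cre had 1 rise (Cspg4) and 1 fall (Pdgfra). The 8 microglia markers summed to at most 1.15 TPM, with Aif1, C1qa and C1qb at 0 throughout. Vascular markers summed to 9.08 to 17.3 TPM in Upf2 Trp53 Cre, 5.07 to 14.4 in Upf2 Cre and 1.39 to 5.15 in Upf2 mock. Acta2, the only 1 of them tested, rose against mock by log2 differences of 1.95 in Upf2 Trp53 Cre and 1.29 in Upf2 Cre. Fewer cells of a type and less RNA per cell cannot be told apart in such bulk samples. The part of cell makeup and of the libraries numbered 3 in the results was not tested beyond the values given.

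Differences were tested with limma on log2(TPM + 1) over 15216 genes that reached 1 TPM in 6 or more libraries. Log2 differences are on that scale, which understates changes of low genes, and p-values were adjusted over all 15216 genes by the method of Benjamini and Hochberg. Of the 8 inhibitor genes, 7 reached 1 TPM in all 18 libraries and were tested, and Deptor was not, with 1 TPM or more in 1 of 18 libraries. In Upf2 Cre against mock, Sesn2, Ddit4, Ddit4l and Tsc1 rose and Sesn1 fell, which is 4 rises and 1 fall among 7 genes. Across all tested genes 16.5% rose and 24.2% fell in that comparison. In Upf2 Trp53 Cre against mock, Sesn2 and Tsc1 rose, 2 of 7 genes beside 10.4% of all tested genes. None of the 7 fell by adjusted p, 1 did at an unadjusted p under 0.05, and 1.09% of all tested genes fell. In Upf2 Trp53 Cre against Upf2 Cre, which tests the difference between the other 2 comparisons, Sesn2, Ddit4 and Ddit4l fell, 3 of 7 genes beside 2.46% of all tested genes. No inhibitor gene rose there by limma, at an adjusted or an unadjusted p under 0.05, beside 11.8% of all tested genes.

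The 3 comparisons share libraries, so their counts are not independent of each other. The median log2 difference over the 7 genes was 0.55 in Upf2 Cre against mock, with -0.12 over all tested genes. It was -0.21 in Upf2 Trp53 Cre against mock, with 0.08 over all genes, and -0.26 between the Cre groups, with 0.25 over all genes. Of all called genes, 40.5%, 90.5% and 82.7% were rises in these comparisons, in the order just given. Scaling the libraries by median ratios turned these shares to 51.7%, 71.7% and 32.9%, and quantile normalization to 48.2%, 69.3% and 47.7%. Median-ratio scaling also brought the 3 medians over all genes to -0.01, -0.03 and 0.02. Values relative to the median of all genes are given below for the genes that passed the test.

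**Figure D1:**
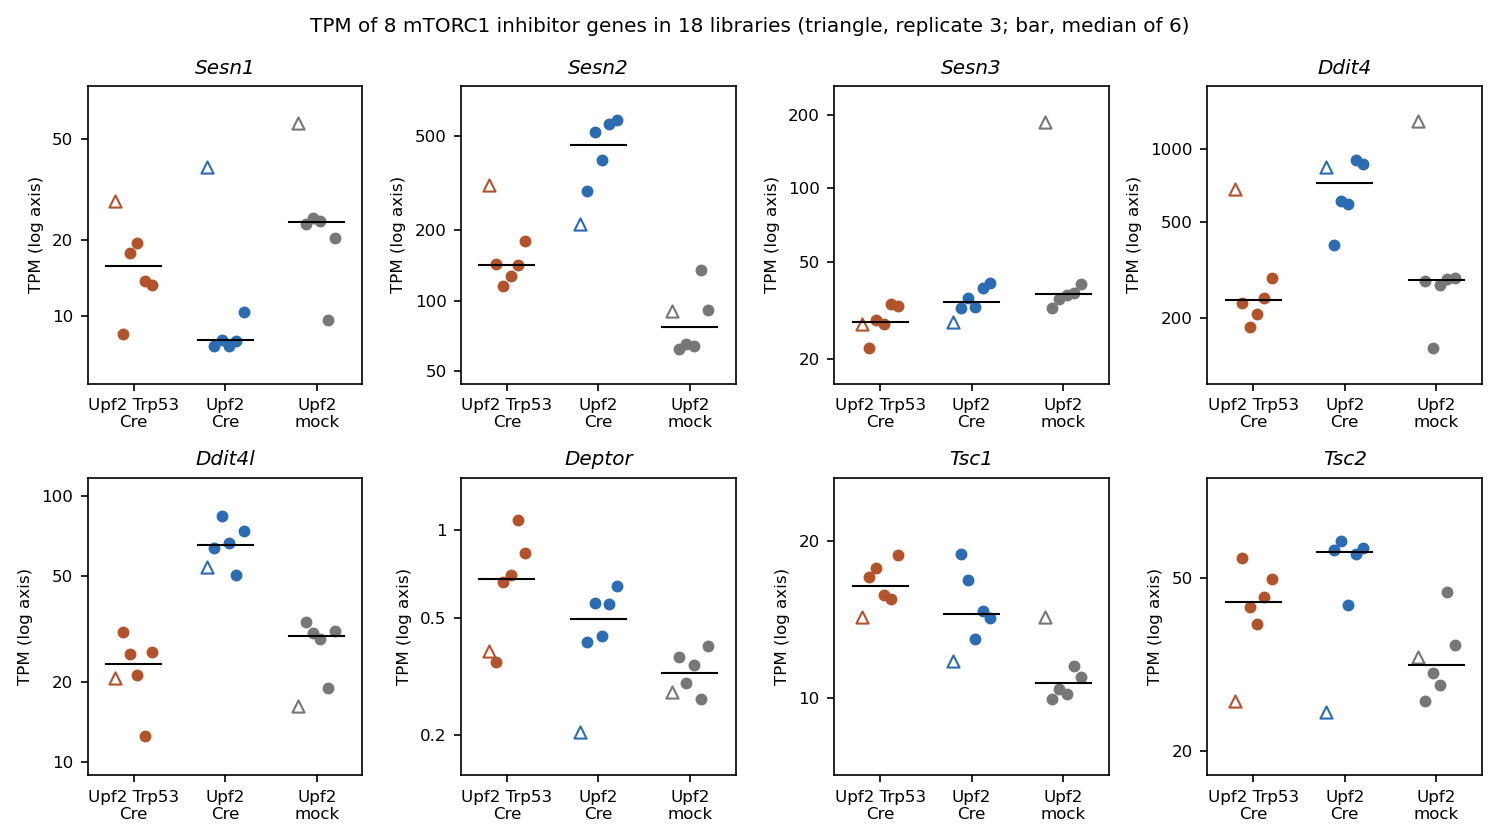
TPM (log axis, own range per gene) of the 8 inhibitor genes in every library, with Upf2 Trp53 Cre in brown, Upf2 Cre in blue and Upf2 mock in grey. Triangles are the libraries numbered 3, circles the other 5 of each group, and bars the medians of 6 libraries. Sesn2 and Ddit4l are higher in all 6 Upf2 Cre libraries than in any mock library, and the mock library numbered 3 is far above the others for Sesn1, Sesn3 and Ddit4.

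Sesn2 spanned the widest range of the 8 genes, 9.35-fold between its lowest and its highest library. Its levels were 115, 142 and 309 TPM in Upf2 Trp53 Cre, 210, 455 and 581 in Upf2 Cre, and 62.2, 77.6 and 135 in Upf2 mock (lowest, median and highest of 6). Every Upf2 Cre library was above every mock library, while the Upf2 Trp53 Cre libraries lay between them and overlapped both groups. The Upf2 Trp53 Cre library numbered 3, at 309 TPM, was the one that reached into the Upf2 Cre range, and the mock library that reached 135 TPM was replicate 8. The rise in Upf2 Trp53 Cre over mock was 1.95-fold (log2 difference 0.96 ± 0.28 SE, limma adjusted p = 0.026), or 0.88 relative to the median of all genes. In Upf2 Cre the rise was 4.87-fold (2.28 ± 0.28, or 2.41 relative to all genes), and 3.79% of all tested genes were likewise higher without overlap. Upf2 Trp53 Cre fell below Upf2 Cre by 1.32 ± 0.28 on the log2 scale (limma adjusted p = 0.0066; -1.57 relative to all genes).

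Without the libraries numbered 3 these 3 differences of Sesn2 were 0.80, 2.50 and -1.70, and all passed the test. The 2 differences that involve Upf2 Cre kept their calls when any 1 of the 18 libraries was left out. The rise of Sesn2 in Upf2 Trp53 Cre against mock was lost without mock replicate 4, 5 or 6 or Upf2 Trp53 Cre replicate 3 or 9 (log2 differences 0.77 to 0.93, limma adjusted p 0.055 to 0.067). It was also lost under median-ratio scaling (adjusted p = 0.090).

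Sesn2 lies on the minus strand of chromosome 4, at 132492032 to 132510501 in GRCm38/mm10 (GENCODE M21). Its single annotated transcript has 10 exons and 480 codons. In the promoter windows of RefSeq (GRCm38.p6, 250 bases before to 50 after the start), 8 windows belong to 7 of the inhibitor genes. They were searched on both strands for TGATGNAA, the composite element of ATF4, for ACGTG, the core of the hypoxia response element, for GTAAACA, a FoxO site, and for the p53 half-site. These motifs occur in 3.97%, 19.6%, 3.65% and 8.36% of 32851 such windows. The windows of Sesn2, Sesn3, Tsc1 and Tsc2 hold none of them, which says only that these letters are not there. A stretch of the Sesn2 window from -200 to -81 (chr4:132510537-132510656, minus strand) is shown as the promoter of the gene that varied most, all in lower case.
Sesn2: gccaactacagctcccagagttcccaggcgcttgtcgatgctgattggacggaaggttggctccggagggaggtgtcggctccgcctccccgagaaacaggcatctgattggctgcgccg

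Sesn1 behaved in the opposite way to Sesn2 in Upf2 Cre against mock. It had 8.52, 15.7 and 28.4 TPM in Upf2 Trp53 Cre, 7.59, 8.01 and 38.6 in Upf2 Cre, and 9.68, 23.4 and 57.5 in Upf2 mock. The highest value of each group was the library numbered 3, and the other 5 Upf2 Cre libraries lay between 7.59 and 10.3 TPM. Without those libraries Sesn1 averaged 14.5 ± 4.23 TPM in Upf2 Trp53 Cre, 8.32 ± 1.15 in Upf2 Cre and 20.3 ± 6.10 in Upf2 mock (SD, n = 5 each). Apart from the libraries numbered 3, Upf2 Cre overlapped mock through mock replicate 8, at 9.68 TPM beside 20.4 TPM or more in the other mock libraries. The Upf2 Trp53 Cre libraries lay from the level of Upf2 Cre up to just below most mock libraries.

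The fall of Sesn1 in Upf2 Cre against mock was 1.04 ± 0.39 SE on the log2 scale with all libraries (limma adjusted p = 0.040; -0.91 relative to all genes). It was -1.13 ± 0.24 without the libraries numbered 3 (adjusted p = 7.3e-04). With all libraries the call was lost without any 1 of Upf2 Cre replicates 4, 5, 6, 8 and 9 or mock replicates 3, 4, 5, 6 and 9 (log2 differences -1.07 to -0.78, adjusted p 0.052 to 0.093). It was also lost under median-ratio scaling (adjusted p = 0.054) and quantile normalization (0.053). Upf2 Trp53 Cre differed from mock by -0.53 ± 0.39, with a 95% interval of -1.34 to 0.28 (adjusted p = 0.43). Upf2 Trp53 Cre differed from Upf2 Cre by 0.51 ± 0.39 (adjusted p = 0.35), which passed without Upf2 Cre replicate 3 (0.86, adjusted p = 0.042) and with all libraries numbered 3 left out (0.70, adjusted p = 0.030).

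Sesn1 covers 41809935 to 41908424 on the plus strand of chromosome 10. RefSeq has 2 promoter windows for it. The upstream one holds GTAAACA on the minus strand, at +22 to +28. The downstream one holds a p53 half-site at -173 to -164. It is shown here in capitals (chr10:41887219-41887318, plus strand), because Sesn1 is a known p53 target that fell in the group where other p53 targets rose. A match to the letters is a description of the window and not a binding site.
Sesn1: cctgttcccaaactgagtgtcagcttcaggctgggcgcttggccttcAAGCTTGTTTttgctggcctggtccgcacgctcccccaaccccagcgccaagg

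Of 14 other p53 targets on a list of textbook genes, Upf2 Cre against mock had 9 rises and no fall by limma at an adjusted or an unadjusted p under 0.05. Against Upf2 Cre, 12 of the 14 fell in Upf2 Trp53 Cre and none rose at either p. Among all tested genes 16.5% rose in the first of these comparisons and 2.46% fell in the second. Cdkn1a, which encodes the cell cycle inhibitor p21, averaged 60.4 ± 33.6 TPM in Upf2 Trp53 Cre, 1135 ± 464 in Upf2 Cre and 201 ± 77.9 in Upf2 mock (SD, n = 6 each). Eda2r, a death receptor gene, averaged 0.997 ± 0.715, 23.0 ± 7.64 and 21.1 ± 6.61 TPM in these groups. Between the Cre groups Sesn2 differed in the same direction as Cdkn1a. The difference of Sesn1 there did not pass the test with all libraries (0.51 ± 0.39 SE, limma adjusted p = 0.35). In Upf2 Trp53 Cre against mock, 4 of the 14 p53 targets fell and none rose by limma at an adjusted or an unadjusted p under 0.05. Among all tested genes 1.09% fell and 10.4% rose. Sesn2 rose in that comparison, by 0.96, while Cdkn1a averaged lower in Upf2 Trp53 Cre than in mock. The part of p53 in these levels was not tested. Mock replicate 8, with the lowest Sesn1 and the highest Sesn2 of its group, had the highest Cdkn1a of the mock libraries, at 331 TPM. It also had the lowest Upf2 of all 18 libraries, at 6.54 TPM, while Upf2 averaged higher in both Cre groups than in mock. Whether these values are linked was not tested.

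Sesn3 had 22.2, 28.3 and 33.7 TPM in Upf2 Trp53 Cre, 28.4, 34.1 and 40.9 in Upf2 Cre, and 32.4, 36.8 and 187 in Upf2 mock. The groups overlapped, and the mock library numbered 3 was at 187 TPM while no other library passed 40.9. No difference of Sesn3 passed the test. Upf2 Trp53 Cre differed from mock by -0.72 ± 0.31 SE on the log2 scale (95% interval -1.36 to -0.08, limma adjusted p = 0.15), and -0.32 without the libraries numbered 3 (adjusted p = 0.079). For Upf2 Cre against mock it was -0.46 ± 0.31 (95% interval -1.10 to 0.18, adjusted p = 0.23), and -0.01 without those libraries (adjusted p = 0.93). The Cre groups differed by -0.26 ± 0.31 (95% interval -0.90 to 0.38, adjusted p = 0.54). Sesn3 lies at 14275067 to 14333101 on the plus strand of chromosome 9, and its 3′ UTR of 7395 bases is longer than that of 99.0% of the tested genes with a principal coding transcript.

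**Figure D2:**
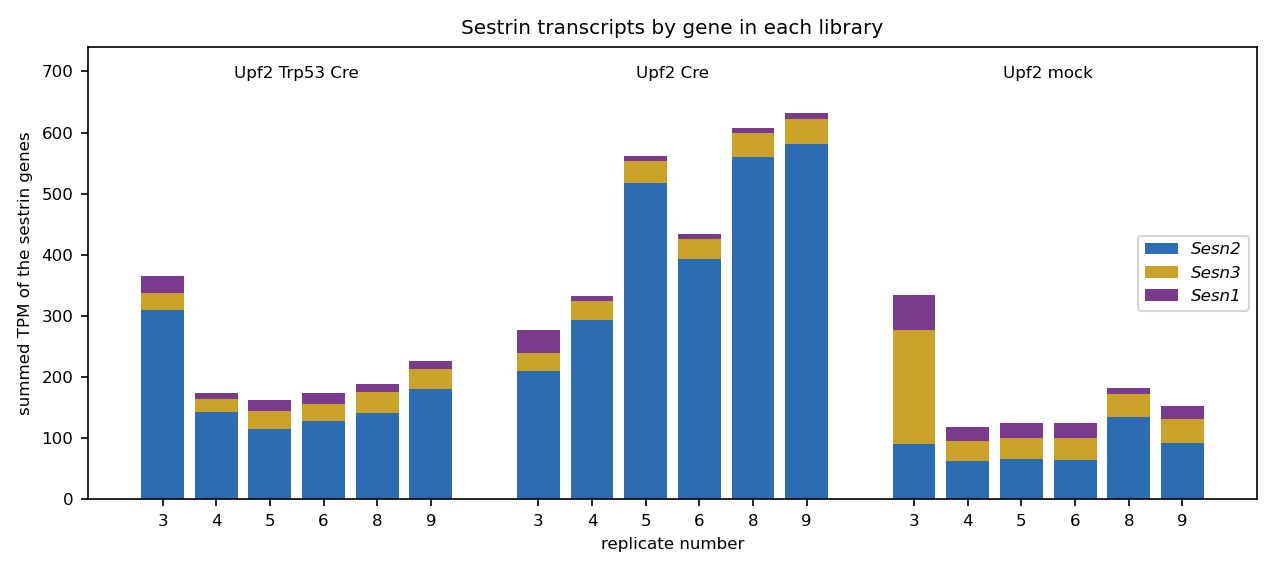
Summed TPM of the 3 sestrin genes in each library (vertical axis), with Sesn2 in blue, Sesn3 in gold and Sesn1 in purple, for the replicate numbers on the horizontal axis. Sesn2 makes up 75.8% to 92.2% of the sum across the Upf2 Cre bars and 26.9% in the mock library numbered 3, where Sesn3 is the largest part.

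The makeup of the sestrin transcripts differed between the groups. Their summed level averaged 215 ± 77.0 TPM in Upf2 Trp53 Cre, 474 ± 149 in Upf2 Cre and 173 ± 83.0 in Upf2 mock (SD, n = 6 each). Sesn2 held 77.6 ± 5.37% of that sum in Upf2 Trp53 Cre, 88.5 ± 6.40% in Upf2 Cre and 52.9 ± 15.4% in Upf2 mock. Without the libraries numbered 3 its share was 76.2 ± 4.59%, 91.0 ± 1.79% and 58.2 ± 9.58% in the same groups (SD, n = 5 each). All 5 Upf2 Cre libraries then lay at 88.0% or more, above all 10 others. The ratio of Sesn2 to Sesn1 TPM had medians of 10.6 in Upf2 Trp53 Cre, 53.8 in Upf2 Cre and 2.70 in Upf2 mock. In the mock group replicate 8 stood highest, with a ratio of 14.0.

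Ddit4 was the most abundant inhibitor gene in each group. It had 184, 238 and 683 TPM in Upf2 Trp53 Cre, 400, 727 and 900 in Upf2 Cre, and 150, 288 and 1304 in Upf2 mock. The highest values of Upf2 Trp53 Cre and of mock came from the libraries numbered 3, and apart from these all Upf2 Cre libraries were above all others. Without the libraries numbered 3 Ddit4 averaged 232 ± 41.5 TPM in Upf2 Trp53 Cre, 675 ± 209 in Upf2 Cre and 259 ± 61.1 in Upf2 mock (SD, n = 5 each). In Upf2 Cre it rose 2.04-fold over mock with all libraries (log2 difference 1.03 ± 0.39 SE, limma adjusted p = 0.044; 1.15 relative to all genes). Without the libraries numbered 3 the difference was 1.36 ± 0.23 (adjusted p = 1.1e-04). Upf2 Trp53 Cre fell below Upf2 Cre by 1.29 ± 0.39 on the log2 scale (adjusted p = 0.036; -1.54 relative to all genes), or -1.49 without those libraries (adjusted p = 2.1e-04).

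Against mock, Ddit4 in Upf2 Trp53 Cre differed by -0.26 ± 0.39 on the log2 scale (95% interval -1.09 to 0.56, limma adjusted p = 0.72). That difference was 0.13 without mock replicate 3 (adjusted p = 0.83), and -0.13 with all 3 libraries numbered 3 left out (adjusted p = 0.71). With all libraries the rise of Ddit4 in Upf2 Cre was lost without any 1 of 12 libraries, namely Upf2 Cre replicates 3, 5, 6, 8 and 9, mock replicates 4, 5, 6, 8 and 9, and Upf2 Trp53 Cre replicates 8 and 9 (0.80 to 1.07, adjusted p 0.051 to 0.12). The fall between the Cre groups was lost without replicate 5, 6, 8 or 9 of either group (-1.33 to -1.18, adjusted p 0.058 to 0.091). Testing all genes without a minimum TPM also lost both calls (adjusted p = 0.11 and 0.072).

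Targets of known inducers of Ddit4 and of the sestrin genes were also compared between the library numbered 3 and the others of its group. Of 14 other targets of ATF4, 12, 11 and 7 were above the other 5 libraries of their group in replicate 3 of Upf2 Trp53 Cre, Upf2 Cre and Upf2 mock. Of 11 tested hypoxia genes, 7, 9 and 3 were, and of 12 FoxO targets 6, 6 and 9, while 29.9%, 37.3% and 32.3% of all tested genes were. In Upf2 mock 4 of the hypoxia genes were below the other 5 libraries. Of the 6 glucocorticoid genes, 1 was above and 3 were below them in each group. Over the groups, 8 of the 14 ATF4 targets rose in Upf2 Trp53 Cre against mock, Upf2 Cre against mock had 5 rises and 1 fall, and 8 rose in Upf2 Trp53 Cre against Upf2 Cre. Under median-ratio scaling and quantile normalization 3 and 4 of the 14 rose between the Cre groups, and without the libraries numbered 3, 10 did. Without those libraries 4264 of all 15216 tested genes rose there, and 334 and 539 did under the 2 scalings. At an unadjusted p under 0.05 in limma, 8 of the 14 rose there under each scaling. With all libraries 10.4% of all tested genes rose in Upf2 Trp53 Cre against mock, 16.5% in Upf2 Cre against mock and 11.8% between the Cre groups. Ddit3, which encodes the stress factor CHOP, averaged 70.7 ± 38.2 TPM in Upf2 Trp53 Cre, 45.5 ± 29.8 in Upf2 Cre and 7.97 ± 4.21 in Upf2 mock (SD, n = 6 each). Atf3, another stress factor gene, had medians of 29.4, 7.28 and 1.51 TPM in these groups. Between the Cre groups, Ddit4 and Sesn2 were lower in Upf2 Trp53 Cre. There 8 of 14 other ATF4 targets rose, or 3 and 4 by adjusted p under the scalings. Sesn2 rose against mock in each Cre group, and Ddit4 only in Upf2 Cre. Of the 14 targets, 8 rose against mock in Upf2 Trp53 Cre, while Upf2 Cre had 5 rises and 1 fall. Whether ATF4 had a part in the levels of Ddit4 and Sesn2 was not tested.

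Ddit4 is a short gene of 3 exons on the minus strand of chromosome 10, at 59949669 to 59951834. Its promoter window holds ACGTG at -187 to -183, shown in capitals because hypoxia and stress are its known inducers (chr10:59951896-59951995, minus strand).
Ddit4: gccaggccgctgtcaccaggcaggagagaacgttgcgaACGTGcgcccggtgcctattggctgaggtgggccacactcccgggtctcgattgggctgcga

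Ddit4l separated Upf2 Cre from both other groups. It had 12.5, 23.3 and 30.7 TPM in Upf2 Trp53 Cre, 50.6, 65.1 and 83.6 in Upf2 Cre, and 16.3, 29.7 and 33.5 in Upf2 mock. All 6 Upf2 Cre libraries, number 3 among them, were above all 12 others, and Upf2 Trp53 Cre and mock overlapped. The rise in Upf2 Cre over mock was 2.45-fold (log2 difference 1.29 ± 0.21 SE, limma adjusted p = 3.3e-04; 1.42 relative to all genes). Upf2 Trp53 Cre fell below Upf2 Cre by 1.51 ± 0.21 on the log2 scale (adjusted p = 1.4e-04; -1.76 relative to all genes), and 0.848% of all tested genes were likewise lower without overlap. Without the libraries numbered 3 these differences were 1.22 and -1.54. Both kept their calls when any 1 of the 18 libraries was left out. The difference between Upf2 Trp53 Cre and mock was -0.21 ± 0.21, with a 95% interval of -0.66 to 0.23 (adjusted p = 0.57).

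The level of Ddit4l was far below that of Ddit4. The ratio of Ddit4 to Ddit4l TPM had medians of 10.6 in Upf2 Trp53 Cre, 10.4 in Upf2 Cre and 9.48 in Upf2 mock, and it reached 80.0 in the mock library numbered 3. Ddit4l lies at 137621612 to 137628333 on the plus strand of chromosome 3. Its window holds a p53 half-site at -90 to -81, shown in capitals (chr3:137623532-137623631, plus strand, -140 to -41). The stretch is shown because Ddit4l did not overlap in either comparison that involves Upf2 Cre. Such half-sites occur in 8.36% of all promoter windows, and a match to the letters is not a binding site. The part of p53 in the level of Ddit4l was not tested.
Ddit4l: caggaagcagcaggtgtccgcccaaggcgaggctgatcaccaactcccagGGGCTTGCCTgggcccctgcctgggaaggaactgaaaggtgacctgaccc

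Deptor was nearly absent. Its lowest, median and highest values were 0.354, 0.681 and 1.07 TPM in Upf2 Trp53 Cre, 0.204, 0.496 and 0.643 in Upf2 Cre, and 0.266, 0.323 and 0.402 in Upf2 mock. The single library that reached 1 TPM was Upf2 Trp53 Cre replicate 8, and all groups overlapped. With no minimum on low values, over 33540 genes, the log2 differences were 0.32 in Upf2 Trp53 Cre against mock (limma adjusted p = 0.065), 0.14 in Upf2 Cre against mock (0.41) and 0.18 between the Cre groups (0.30). Deptor lies at 55112317 to 55259271 on the plus strand of chromosome 15, and 303 bases of its exons overlap those of Gm9920 on the other strand. The sources used here do not say whether counting used strand, so the reads of the 2 genes may not be separated.

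Tsc1, which encodes the stabilizing subunit hamartin of the TSC complex, varied least of the tested inhibitor genes, 1.89-fold over all libraries. It had 14.3, 16.4 and 18.8 TPM in Upf2 Trp53 Cre, 11.8, 14.5 and 18.9 in Upf2 Cre, and 9.99, 10.7 and 14.3 in Upf2 mock. The highest mock value was the library numbered 3, and the other 5 mock libraries, at 11.6 TPM or less, were below all others of both Cre groups. Against mock, Tsc1 rose 1.44-fold in Upf2 Trp53 Cre (log2 difference 0.52 ± 0.14 SE, limma adjusted p = 0.017; 0.44 relative to all genes). The rise in Upf2 Cre was 1.29-fold (0.37 ± 0.14, adjusted p = 0.041; 0.50 relative to all genes). Without the libraries numbered 3 the differences were 0.63 (adjusted p = 0.0014) and 0.50 (0.0026).

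The rise of Tsc1 in Upf2 Trp53 Cre was lost without Upf2 Trp53 Cre replicate 9 (0.49, limma adjusted p = 0.052), under median-ratio scaling (0.073) and under quantile normalization (0.078). Its rise in Upf2 Cre was lost without Upf2 Cre replicate 4, 5, 8 or 9, mock replicate 4, 5, 6 or 9, or Upf2 Trp53 Cre replicate 6 or 8 (0.30 to 0.38, adjusted p 0.051 to 0.091). Tsc1 differed between the Cre groups by 0.15 ± 0.14 on the log2 scale (95% interval -0.14 to 0.44, adjusted p = 0.44), and by -0.11 under median-ratio scaling.

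Tsc2 encodes tuberin, the subunit that acts on Rheb. It had 26.1, 43.9 and 55.7 TPM in Upf2 Trp53 Cre, 24.6, 57.4 and 60.8 in Upf2 Cre, and 26.1, 31.5 and 46.3 in Upf2 mock. The lowest library of each Cre group was number 3, and the highest mock library was replicate 8, so that all groups overlapped. Upf2 Cre differed from mock by 0.55 ± 0.22 SE on the log2 scale, which missed the threshold (95% interval 0.09 to 1.01, limma adjusted p = 0.051). The difference passed under median-ratio scaling (adjusted p = 0.027) and with the libraries numbered 3 left out (0.74, adjusted p = 7.7e-04). It also passed without Upf2 Cre replicate 3, mock replicate 8, or Upf2 Trp53 Cre replicate 3 or 4 (0.55 to 0.74, adjusted p 0.0025 to 0.049). For Upf2 Trp53 Cre against mock it was 0.36 ± 0.22 (adjusted p = 0.34), and 0.49 without the libraries numbered 3 (adjusted p = 0.031). The Cre groups differed in Tsc2 by -0.20 ± 0.22, with a 95% interval of -0.66 to 0.26 (adjusted p = 0.53).

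The ratio of Tsc2 to Tsc1 TPM averaged 2.59 ± 0.490 in Upf2 Trp53 Cre, 3.35 ± 0.716 in Upf2 Cre and 2.96 ± 0.592 in Upf2 mock (SD, n = 6 each), with overlapping ranges. Tsc1 lies at 28641228 to 28691167 on the plus strand of chromosome 2 and Tsc2 at 24595816 to 24632630 on the minus strand of chromosome 17. The exons of Tsc2 overlap those of Pkd1, on the other strand, by 693 bases, so the TPM of Tsc2 could hold reads of Pkd1 if counting ignored strand.

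**Figure D3:**
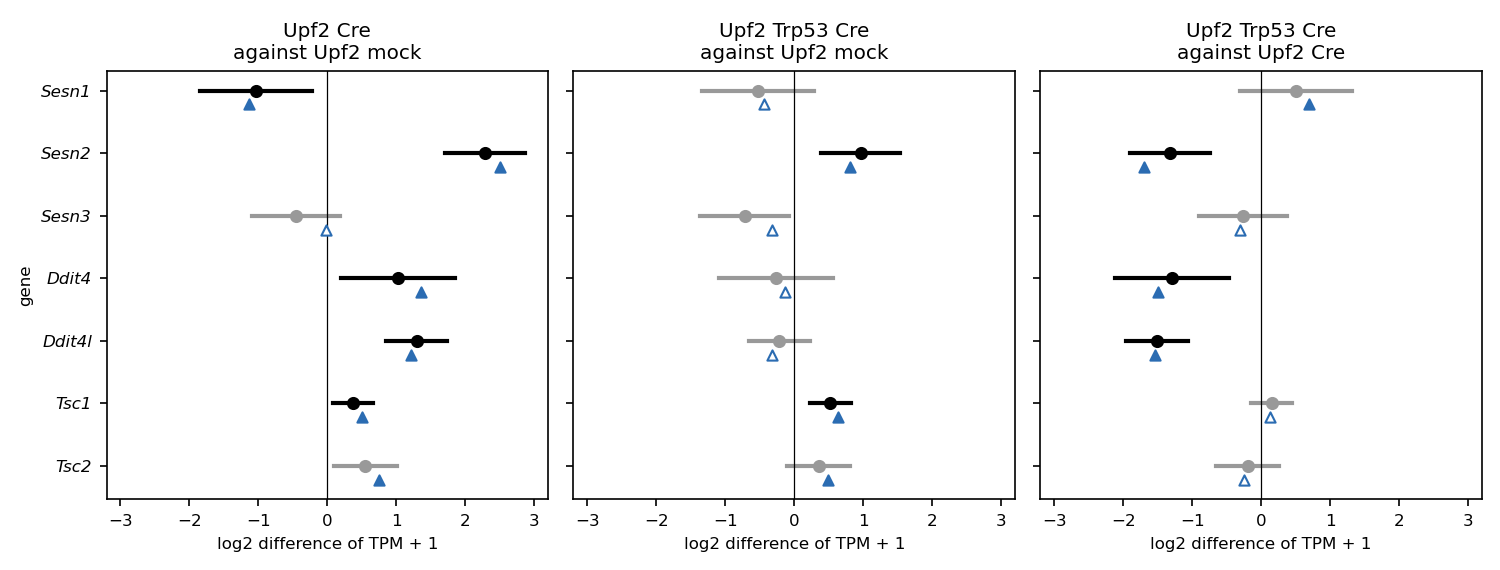
Log2 differences of TPM + 1 (horizontal axis) of the 7 tested inhibitor genes in the 3 comparisons. Circles and lines are estimates with 95% intervals over 18 libraries, black where the adjusted p of limma was under 0.05 and grey otherwise. Blue triangles are estimates without the libraries numbered 3, filled where they passed. Sesn2 at 2.28 and Ddit4l at 1.29 lead the Upf2 Cre panel, and both lie below 0 between the Cre groups.

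The profiles of the inhibitor genes over the 18 libraries differed from each other. Likeness was measured as the root mean square difference of log2(TPM + 1) after centring each gene on its mean over the 18 libraries. Tsc1 and Tsc2 were the closest pair, at 0.31, and Sesn1 and Sesn2 the farthest apart, at 1.65. Among 9797 other genes with a mean of at least 5 TPM, those near to Sesn1 included Trim13 and Ccng2 (0.20 each, with a median of 0.85 over all candidates). Ccng2, an atypical cyclin gene and known FoxO target, had 48.2 TPM in the mock library numbered 3 and 5.44 to 17.3 in the other mock libraries, the same order as Sesn1 at these ends. The nearest to Sesn2 were Zbtb7b, Mapkapk3 and Azin2 (0.36, 0.39 and 0.43), and the nearest to Ddit4l were Slc27a3, Cdc34 and Bax (0.39 each). Bax, a p53 target that promotes cell death, averaged 95.6 ± 16.2 TPM in Upf2 Trp53 Cre, 336 ± 100 in Upf2 Cre and 115 ± 26.9 in Upf2 mock (SD, n = 6 each). Sesn3 was nearest to Pitpnc1, Mycl and Plcd4 (0.24 to 0.27), and Ddit4 to Arvcf, Dyrk1b and Mt1 (0.45 to 0.52).

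Because Upf2 acts in nonsense-mediated decay, the annotated mRNAs of the 8 genes were also described. None of their principal transcripts has an exon junction more than 50 bases after the stop codon, as is so for all but 0.377% of the tested genes with such a transcript. Sesn2, Sesn3 and Deptor each have 1 ATG in the annotated 5′ UTR and Tsc1 has 4, while Sesn1, Ddit4, Ddit4l and Tsc2 have none. In the background, 51.7% of genes have at least 1. GENCODE lists transcripts of the decay type for Tsc1 (2 of 11), Tsc2 (1 of 22) and Deptor (1 of 4), beside 28.6% of tested coding genes with any. Gene-level TPM cannot show which transcripts changed.

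Around the inhibitors, the partners of the sestrins moved in both directions in Upf2 Cre against mock, where 16.5% of all tested genes rose and 24.2% fell. Of the 5 genes of GATOR2, Sec13, Seh1l and Mios fell and Wdr24 rose. Sec13, which also serves in vesicle coats and nuclear pores, averaged 175 ± 29.7 TPM in Upf2 Trp53 Cre, 92.6 ± 49.3 in Upf2 Cre and 194 ± 35.6 in Upf2 mock (SD, n = 6 each). The log2 difference of Sec13 between Upf2 Cre and mock was -1.17 (limma adjusted p = 0.0019) and that of Seh1l -1.23 (0.013). Of 10 genes of GATOR1, its anchor KICSTOR and related sensors, Itfg2 and Nprl3 rose and none fell, by limma at an adjusted or an unadjusted p under 0.05. The same genes rose in Upf2 Trp53 Cre against mock, where Nprl3 missed the threshold under both other scalings. In that comparison 10.4% of all tested genes rose. Itfg2, a subunit of KICSTOR, averaged 31.2 ± 5.00 TPM in Upf2 Trp53 Cre, 30.3 ± 6.97 in Upf2 Cre and 9.15 ± 0.759 in Upf2 mock. Both Cre groups were above mock without overlap, as were 7.08% of all tested genes in Upf2 Trp53 Cre, by log2 differences of 1.66 and 1.60 (adjusted p = 1.9e-07 and 2.0e-06). Castor1, an arginine sensor, averaged 1.27 ± 0.526 TPM in Upf2 Trp53 Cre, 1.22 ± 0.472 in Upf2 Cre and 0.350 ± 0.279 in Upf2 mock (SD, n = 6 each). It stayed under 1 TPM in every mock library and so reached the minimum for testing only through the Cre groups, and its difference is not counted here. With the libraries numbered 3 left out, 5 of the 10 rose in each Cre group against mock, Castor1 among them. Rises over all 15216 tested genes then grew from 1586 to 2874 in Upf2 Trp53 Cre and from 2506 to 3885 in Upf2 Cre. Mios, Wdr24 and Castor1 are named here because their lists had few calls, after their values were seen.

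Downstream of the sestrins, 3 of 13 genes of the Rag, Ragulator and folliculin group rose in Upf2 Cre against mock and 5 fell. The shares over all tested genes were 16.5% and 24.2%. Rraga and Rragb, which encode Rag GTPases, fell by 1.16 and 1.20 on the log2 scale (limma adjusted p = 0.0032 and 0.0019). Rheb, the target of the TSC complex, averaged 19.3 ± 9.23 TPM in Upf2 Trp53 Cre, 12.1 ± 5.53 in Upf2 Cre and 24.5 ± 10.9 in Upf2 mock (SD, n = 6 each). Upf2 Cre fell below mock by 0.91 (adjusted p = 0.033), and Tbc1d7, the third subunit of the TSC complex, fell by 0.88 (7.9e-04). Between Upf2 Trp53 Cre and mock Rheb differed by -0.32 and Tbc1d7 by -0.26, and neither passed the test (adjusted p = 0.58 and 0.34). Thus Tsc1 rose and Tbc1d7 fell in the same comparison.

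Of 10 genes of the mTOR complexes, Upf2 Cre against mock had 4 rises and 2 falls, and 4 rose in Upf2 Trp53 Cre against mock, of which 1 did so under either other scaling. Among all tested genes 16.5% rose and 24.2% fell in Upf2 Cre, and 10.4% rose in Upf2 Trp53 Cre, each against mock. Akt1s1, which encodes the inhibitory subunit PRAS40, rose by 0.79 in Upf2 Trp53 Cre (limma adjusted p = 0.028) and by 1.06 in Upf2 Cre (0.0022), each against mock. Prr5l, a partner of mTORC2, rose by 1.40 in Upf2 Trp53 Cre (0.0016) and by 0.78 in Upf2 Cre (0.029), each against mock. Its difference in Upf2 Cre was 0.45 and did not pass (0.074) without the libraries numbered 3. Of 13 tested substrates and effectors of mTORC1, Upf2 Cre against mock had 4 rises and 3 falls, and 2 rose in Upf2 Trp53 Cre. The libraries numbered 3 left out, there were 6 rises and 1 fall in Upf2 Trp53 Cre and 8 rises and 3 falls in Upf2 Cre, and under median-ratio scaling 6 rose in Upf2 Cre. Without those libraries all 15216 tested genes had 2874 rises and 680 falls in Upf2 Trp53 Cre. In Upf2 Cre they had 3885 rises and 5070 falls, and 3219 rises under median-ratio scaling. Eif4ebp1, a repressor of translation that mTORC1 inactivates, averaged 220 ± 73.6 TPM in Upf2 Trp53 Cre, 184 ± 29.6 in Upf2 Cre and 69.9 ± 24.3 in Upf2 mock (SD, n = 6 each). Both Cre groups were above mock without overlap, by log2 differences of 1.65 and 1.44 (limma adjusted p = 3.4e-05 and 1.9e-04). Rps6, a ribosomal protein gene with many processed copies in the genome, fell by 1.89 in Upf2 Cre (0.0021), so its TPM depends on how reads were divided among the copies.

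Against mock, 16.5% of all tested genes rose and 24.2% fell in Upf2 Cre, and 10.4% rose in Upf2 Trp53 Cre, beside the counts that follow. Of 10 AMPK genes, 3 rose in Upf2 Cre against mock and 2 in Upf2 Trp53 Cre against mock. Those in Upf2 Trp53 Cre were Prkab1 (1.11) and Prkab2 (1.04), subunits of the energy sensor that activates the TSC complex (limma adjusted p = 2.0e-04 and 2.8e-04). In Upf2 Cre, Prkab1 rose by 0.56 (0.017) and Prkab2 differed by 0.21 and did not pass (0.33). Of the AMPK genes, 4 rose in Upf2 Trp53 Cre against mock without the libraries numbered 3, and Upf2 Cre then had 3 rises and 2 falls. Among all 15216 tested genes 2874 then rose in Upf2 Trp53 Cre, and Upf2 Cre had 3885 rises and 5070 falls. Of 11 PI3K and AKT genes, 3 fell in Upf2 Cre against mock, among them Pik3r1 (-0.92, adjusted p = 2.8e-04), which encodes a regulatory subunit of PI3K. None of the 11 rose by adjusted p, 4 did at an unadjusted p under 0.05, and 4 rose by adjusted p under median-ratio scaling. Of 14 lysosome and autophagy genes, Upf2 Cre against mock had 6 rises and 1 fall, and 5 rose in Upf2 Trp53 Cre against mock, or 2 under median-ratio scaling. Ctsd, a lysosomal protease gene, had a log2 difference from mock of 0.38 in Upf2 Trp53 Cre, which did not pass (0.51), and rose by 1.57 in Upf2 Cre (0.0018). Gabarapl1, an autophagy gene, rose by 1.42 in Upf2 Trp53 Cre (4.6e-07) and by 1.11 in Upf2 Cre (2.7e-05), both without overlap with mock. Among 11 hypoxia genes Upf2 Cre had 1 rise and 5 falls against mock. Of 12 FoxO targets 2 rose and 2 fell (5 and 2 without the libraries numbered 3), and of 6 glucocorticoid genes 1 rose. With all libraries, the rises in these 2 lists were near the share over all tested genes, 16.5%. The falls among the PI3K and AKT genes were near the share of 24.2%.

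**Figure D4:**
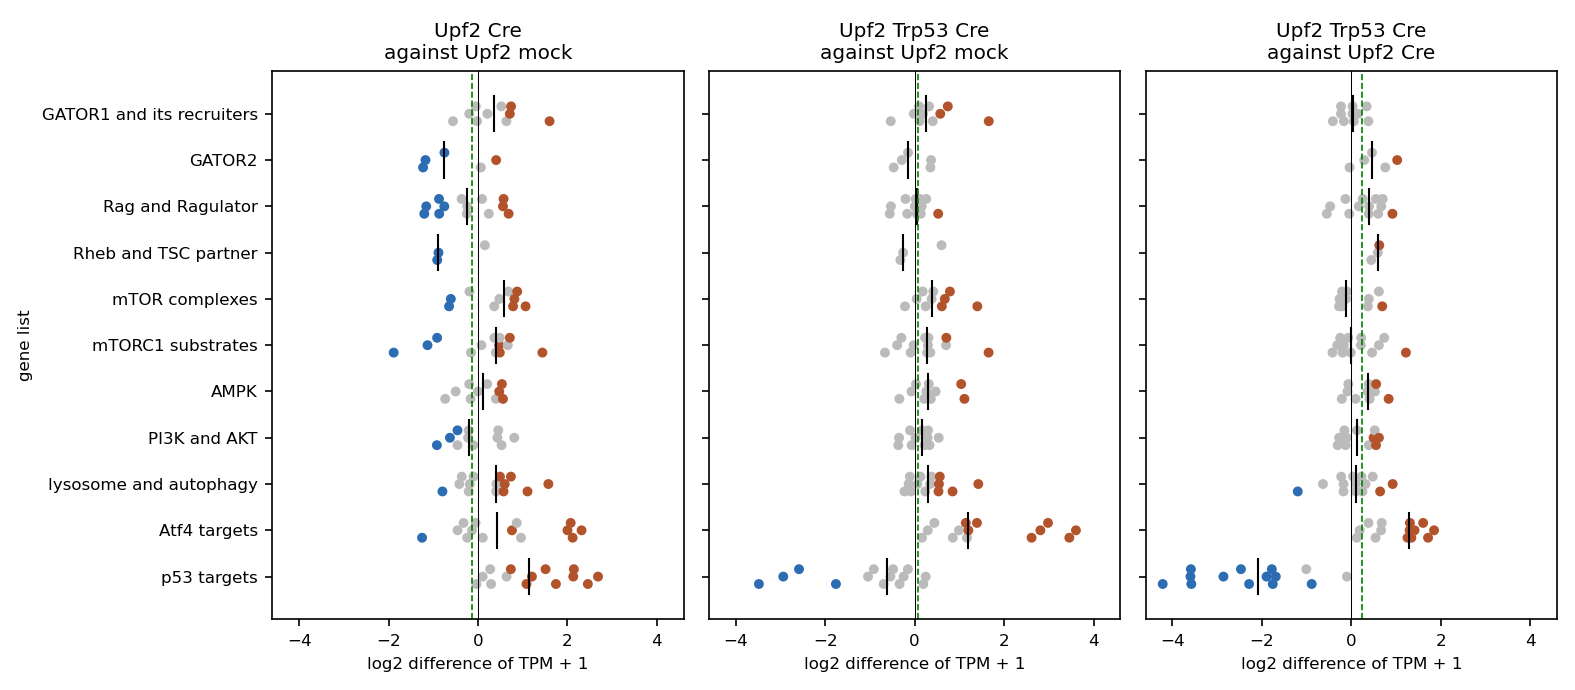
Log2 differences of TPM + 1 (horizontal axis) of the tested genes of 11 lists (vertical axis) in the 3 comparisons. Brown points rose, blue points fell and grey points did not pass the test by limma; black bars are list medians and the dashed green line is the median of all tested genes. The p53 targets lie mostly right of 0 in Upf2 Cre against mock and left of 0 between the Cre groups, with medians of 1.15 and -2.09.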

How the data were processed

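Total RNA of 18 libraries was prepared with a TruSeq Stranded Total RNA kit of Illumina from RNA with integrity numbers of at least 9.0, per the labels' protocols. Reads were aligned with STAR to mm10, per the submitters' processing notes; versions, the counting tool, its strand setting and the annotation are not given in the sources used here. The authors deposited TPM per gene, which sum to a fixed total per library and keep no depth, so a rise in some genes lowers the rest. Groups are those of the labels. limma 3.58.1 in R 4.3.3 was fitted to log2(TPM + 1) of 15216 genes that reached 1 TPM in 6 or more libraries, as 3 group means over 18 libraries with a mean-variance trend, and p-values were adjusted by Benjamini and Hochberg with a threshold of 0.05. The fit was tested on simulated data.

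The genes, lists and settings were chosen with earlier results of these data known, the lists from general knowledge. Named genes are the 8 inhibitor genes, Upf2, Trp53, up to 2 genes per list by smallest adjusted p and the 3 nearest profiles per gene; some genes this rule names are not reported here. Gene models are GENCODE M21, to which 55394 of 55573 IDs matched without version, and promoter sequences are from RefSeq (GRCm38.p6). Alternatives were a pseudocount of 0.1, other minimums, 2 scalings, no trend, a replicate block, the compared groups alone, a minimum change of 1.5-fold and leaving out libraries. Python 3.11.15 and Matplotlib 3.10.9 were used for the rest. Trp53-only knockout cells, named in the series text, are not analysed here.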

Additional observations from a re-analysis of the deposited data

Results flagged for a closer look

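In 7 of the 24 sets of 6 TPM values (8 genes in 3 groups), the highest library lay farther from the rest than Dixon's criterion for 6 values allows. For normally distributed values chance flags about 1 set in 20. In all 7 sets the highest was the library numbered 3. In Upf2 Trp53 Cre these were Sesn2, at 309 TPM beside 180 in the next library, and Ddit4, at 683 beside 295. In Upf2 Cre it was Sesn1, at 38.6 beside 10.3. In Upf2 mock these were Sesn1, at 57.5 beside 24.4, Sesn3, at 187 beside 40.6, Ddit4, at 1304 beside 293, and Tsc1, at 14.3 beside 11.6. The flagged genes thus differed between the groups: Sesn2 of the library numbered 3 was high in Upf2 Trp53 Cre and the lowest of its group in Upf2 Cre, at 210 TPM. The cause was not tested.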

How the results depend on the processing

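Of the alternatives' values for single genes, 508 kept direction and call, 65 lost the call, 12 gained it and 3 reversed. The reversals were Ddit4 in Upf2 Trp53 Cre against mock (0.13 without mock replicate 3; -0.53 to 0.13 over the libraries left out) and Tsc1 between the Cre groups (-0.11 under median-ratio scaling, -0.12 under quantile normalization), none of which passed the test; the cause was not tested. The count of genes called in Upf2 Cre against mock was 6192, and 215 with a minimum change of 1.5-fold. In Upf2 Trp53 Cre against mock it was 1752, and 235 with 1.5-fold and 3554 without the libraries numbered 3. Between the Cre groups it was 2165, and 1014 under median-ratio scaling, 1131 under quantile normalization, 109 with 1.5-fold and 5590 without the libraries numbered 3. Leaving out 1 library gave 4527 to 8278, 1335 to 2260 and 598 to 5514 calls, in the order of the comparisons above. The inhibitor genes risen in Upf2 Cre against mock numbered 4, but 2 with only the compared groups, 1 with 1.5-fold and 2 to 5 without 1 library. The 1 fallen there became 0 with no minimum on low values, under both scalings, with only the compared groups and with 1.5-fold, and 0 to 1 without 1 library. In Upf2 Trp53 Cre against mock the 2 risen became 0 under median-ratio scaling and with 1.5-fold, 1 under quantile normalization and 0 to 2 without 1 library, with 0 fallen without any 1 library. Between the Cre groups the 3 fallen became 1 with 1.5-fold and 2 to 3 without 1 library, and the 0 risen became 1 without the libraries numbered 3 and 0 to 1 without 1 library. With the replicate number as a block, 8054, 2970 and 4445 genes were called in the 3 comparisons, and Tsc2 passed against mock in Upf2 Cre (limma adjusted p = 0.017). Deviations of same-numbered libraries correlated at -0.17 to 0.74, most of them above 0, and not every library correlated best with its own number. Whether equal numbers mark paired samples cannot be settled from these values. The main fit treats the libraries as unpaired. Depth is unknown, which limits low genes such as Deptor most.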
